A study of Rattus norvegicus with 72 samples.

Results

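Lung RNA from 12 rats that breathed only filtered air was compared, 6 animals of a group called air H and 6 of a group called air L, all killed 7 days after the last inhalation session. The 12 libraries were chosen by the letters and the day in their sample titles, out of 72 libraries in the series, and no measured value entered that choice. Every animal was an adult male Sprague-Dawley rat held in an inhalation chamber for 6 hours per day on 4 days, and both air groups carry a diesel particle concentration of 0 ug/m3. In the exposed animals of the same series the letter H goes with 1000 ug/m3 and the letter L with 200 ug/m3 of diesel exhaust particles. For animals in air the letters are not explained, nor do the labels tell whether the H and L animals were housed, dissected or sequenced together. Animal, chamber run and library preparation therefore cannot be told apart between the groups. The air H animals are numbered 009 to 012, 033 and 034, and the air L animals 065 to 070. The question is which transcripts differed between lungs that had received the same nominal treatment, and whether the genes that differed belonged to one cell type or one response, or to classes of RNA that cut across cell types.

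The lung is a mixture of cell types, and RNA from a piece of it is a sum over all of them. Type II pneumocytes make surfactant, type I pneumocytes form the thin gas exchange surface, club and ciliated cells line the airways, and endothelium, fibroblasts, smooth muscle and resident immune cells make up most of the rest. A change in the share of one cell type moves the genes that mark it together, although in bulk RNA fewer cells of a type and less RNA per cell cannot be told apart. Subunits of the ribosome, the respiratory chain and the proteasome are made in every cell and assemble in fixed proportions, so their transcripts tend to keep similar relative levels. The libraries were made from total RNA after removal of ribosomal RNA, with a kit that keeps strand, and such libraries hold unspliced and non-polyadenylated RNA beside mature mRNA.

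Reads assigned to genes numbered 3718893 to 4969712 per library in air H (median 4316997.5) and 3471134 to 4415131 in air L (median 3823601.5). All 12 libraries had counts for each of the 12 type II and 11 type I pneumocyte genes listed, the lowest level being 56.2 CPM for Etv5, so the defining markers of lung were present. Among the 30 pairs of libraries within the groups, 0 were identical, and all differed beyond sampling noise (chi-square over its degrees of freedom from 2.125 to 5.688). Each library comes from a separate animal, so a p-value measures the spread between animals and their libraries. Levels are given as CPM, the count per 1e6 counts of a library after TMM scaling, and differences as log2 of air H over air L, with the standard error (SE) in parentheses.

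Air H and air L differed in 4110 of the 13836 genes with enough counts to be tested (29.7% at an adjusted p under 0.05, edgeR's quasi-likelihood test with Benjamini-Hochberg adjustment). In air H, 1706 genes were higher (12.3%) and 2404 lower (17.4%), so 41.5% of the calls were higher; with upper-quartile factors the share was 52.8% and with no scaling factors 51.9%. The sizes were unequal. The median difference was 0.27 among the genes called higher and -0.48 among those called lower, and the median over all genes tested was 0.01. At least 2-fold lower were 216 of the called genes (1.56% of those tested), against 7 that were at least 2-fold higher (0.0506%). All 6 air H libraries lay below all 6 air L libraries in 1218 genes (8.8%) and above them in 843 genes (6.09%). The 95% interval of the difference stayed within a fold of 2 in either direction for 92.9% of the genes.

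**Figure D1:**
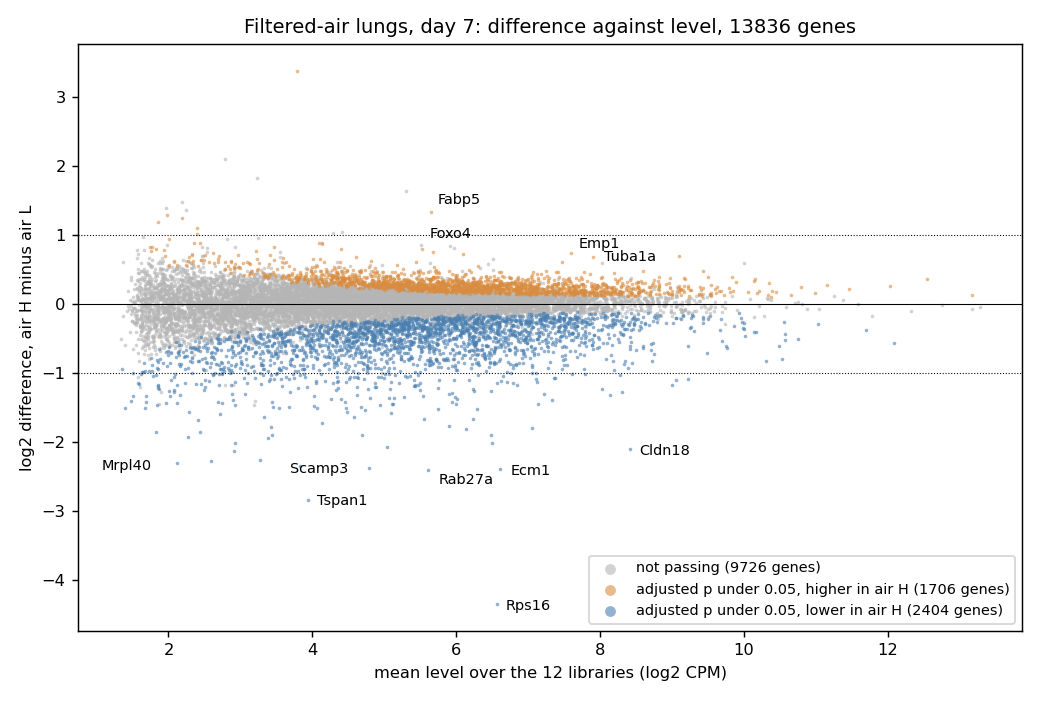
Difference between air H and air L (y axis, log2) against mean level (x axis, log2 CPM) for every gene tested at day 7, 1 point per gene, with dotted lines at a fold of 2. The 2404 genes called lower spread far below zero, down to Rps16 at -4.36, while the 1706 called higher have a median of 0.27.

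With TMM factors, more genes were lower than higher with either number series of the air H animals. With animals 009 to 012 alone against air L, 4500 genes were called, 1968 higher and 2532 lower, and with animals 033 and 034 alone 1474, of which 401 were higher and 1073 lower. The second fit holds 2 animals in air H and so calls fewer genes by its construction. Leaving out animal 033 raised the count to 4632, and leaving out any other animal of the 12 gave 3600 to 3957.

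The largest falls came from several gene groups. By a rule of size (adjusted p under 0.05, groups that do not overlap, a mean level of 2 log2 CPM or more, and a proper gene name), the 12 largest were Rps16, Tspan1, Rab27a, Ecm1, Scamp3, Mrpl40, Gpsm3, Cldn18, Agpat1, Mrpl43, Myl12b and Sox9. Of these, Cldn18 is in the type I pneumocyte list and Rps16, Mrpl40 and Mrpl43 are in the ribosomal lists. Rps16 encodes a protein of the small ribosomal subunit. It stood at 3.92 to 19.4 CPM in air H (median 7.58) and at 167 to 199.6 CPM in air L (median 176), a log2 difference of -4.36 (SE 0.24, adjusted p = 1.63e-07), or 20.5-fold lower. Every air H animal was below every air L animal by a wide margin. The least affected were animal 033, at 19.4 CPM, and animal 009, at 11.6 CPM. Rps16 has near-identical processed copies in the genome, so its count is uncertain.

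Cldn18, a tight junction claudin of the alveolar epithelium, had the highest level among these genes. It lay between 82.0 and 198.2 CPM in air H (median 126) and between 499.7 and 613 CPM in air L (median 539), with a log2 difference of -2.11 (SE 0.19, adjusted p = 1.42e-05). Animal 033 again held the highest air H level and animal 012 the lowest. Rab27a, a small GTPase that docks secretory vesicles, ranged from 9.91 to 23.1 CPM (median 14.1) against 69.5 to 87.2 CPM (median 84.3), a difference of -2.41 (SE 0.15, adjusted p = 4.44e-08). Ecm1, a secreted matrix glycoprotein, had 21.4 to 38.2 CPM (median 33.9) against 146 to 175 CPM (median 164), or -2.40 (SE 0.12, adjusted p = 2.9e-09). In both genes the groups were separate. Rps16, Cldn18 and Rab27a had the same order of animals among the air H libraries, with 033 and 009 highest and 011 and 012 lowest.

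Among the others, Scamp3, a carrier protein of vesicle membranes, had 7.13 to 10.4 CPM in air H and 40.4 to 54.5 CPM in air L (-2.38, SE 0.11). Tspan1, a tetraspanin of the cell surface, had 0.915 to 7.38 CPM and 16.6 to 31.2 CPM (-2.84, SE 0.29). Agpat1, an enzyme of phospholipid synthesis, had 8.23 to 15.6 CPM and 45.6 to 58.2 CPM (-2.07, SE 0.13). None of these 3 genes is in a list used here, and in each the groups were separate. Myl12b, a regulatory light chain of non-muscle myosin with a close relative in Myl12a, differed by -2.02 (SE 0.14). Gpsm3, a regulator of G proteins, differed by -2.28 (SE 0.19), and Sox9, a transcription factor of airway and cartilage progenitors, by -1.93 (SE 0.27). The mitochondrial ribosomal proteins Mrpl40 and Mrpl43 differed by -2.31 (SE 0.29) and -2.02 (SE 0.23). Mrpl40 was a low gene, with 0.42 to 2.189 CPM against 4.62 to 9.75 CPM.

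Of all 216 genes called at least 2-fold lower, 182 (84.3%) had groups that did not overlap, beside 8.8% of all genes tested with air H below air L. That share and the median difference of -1.21 follow largely from the choice of these genes. Their mean levels spanned 1.39 to 9.22 log2 CPM, with a median of 4.33 beside 4.91 over all genes tested, so they were not confined to weakly covered genes. The cell type and response lists hold 8 of them, the RNA class lists 13, and 195 are in no list. The share of all tested genes that the lists hold was not counted. These numbers therefore do not tell whether the falls were more or less frequent inside the lists. Gene names made up 194 of the 216, beside 12138 of the 13836 genes tested. Symbols that are only an identifier (LOC or RGD) made up 22 between them, 15 and 7, beside 1357 and 323 of those tested.

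**Figure D2:**
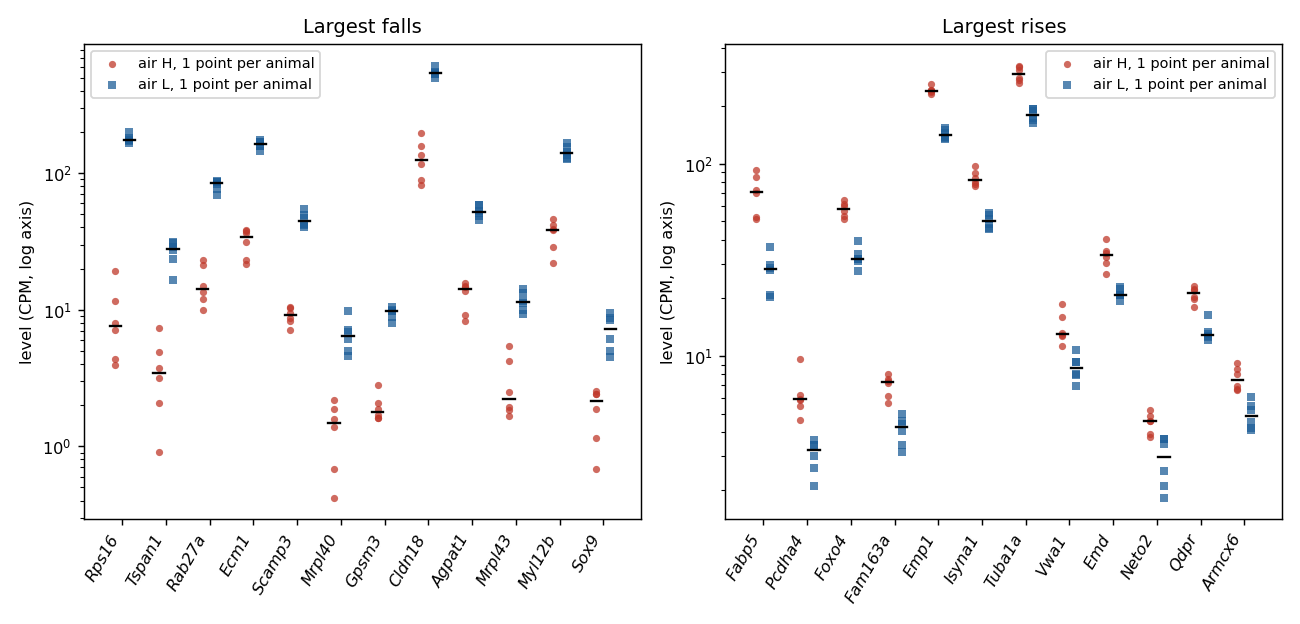
Level in CPM (log axis) in each of the 6 air H animals (circles) and 6 air L animals (squares) for the 12 largest falls and 12 largest rises, with a bar at each group's median. All 24 genes have groups that do not overlap, which the rule required, and the gaps are wider among the falls, as in Rps16 with medians of 7.58 CPM in air H and 176 CPM in air L.

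The largest rises were smaller. Fabp5, a carrier of fatty acids, stood at 51.4 to 92.8 CPM in air H (median 71.5) and 20.2 to 36.7 CPM in air L (median 28.2), a log2 difference of 1.34 (SE 0.19, adjusted p = 0.000187). Emp1, a membrane protein of epithelia, had 231 to 261 CPM (median 239.7) against 135 to 154 CPM (median 141), or 0.73 (SE 0.05, adjusted p = 6.67e-10). Fabp5 and Emp1 were also the 2 genes called higher when the difference had to pass a fold of 1.5, where 223 genes were called lower. Tuba1a, an alpha tubulin with near-identical relatives, had 262 to 324 CPM against 163 to 193.5 CPM (0.68, SE 0.06). Foxo4, a forkhead transcription factor, had 51.3 to 64.4 CPM against 27.7 to 39.5 CPM (0.80, SE 0.08). All 4 genes had separate groups.

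Isyna1, which makes inositol phosphate, was higher by 0.72 (SE 0.07), Emd, a protein of the nuclear envelope, by 0.63 (SE 0.10), and Qdpr, which regenerates tetrahydrobiopterin, by 0.62 (SE 0.10). Vwa1, a matrix protein with a von Willebrand domain, was higher by 0.67 (SE 0.14), Fam163a by 0.73 (SE 0.17) and Armcx6 by 0.61 (SE 0.17). Pcdha4 was higher by 1.01 (SE 0.22), but the protocadherins of its cluster share exons, so its count is uncertain. Neto2, an auxiliary subunit of glutamate receptors, was higher by 0.63 (SE 0.22, adjusted p = 0.0354), and its call was lost in 7 of the 12 fits that left out 1 animal. None of the 12 rises is a member of a list used here.

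The alveolar epithelial lists leaned to lower values, and they were not alone in this. The mast cell (-0.70), lymphatic (-0.22), alveolar macrophage (-0.22) and B and plasma cell (-0.14) lists also had negative medians. Other cell type lists had positive ones, such as smooth muscle (0.25). Of 12 type II pneumocyte genes 6 were lower and 0 higher (median -0.21), beside 17.4% lower among all genes. Nkx2-1, the lung epithelial transcription factor, stood at 60.6 to 85.2 CPM in air H (median 73.8) and 96.7 to 126 CPM in air L (median 112), a difference of -0.65 (SE 0.09, adjusted p = 1.27e-05). Slc34a2, the phosphate transporter of type II cells, had 1204 to 1659 CPM against 1724 to 2219.7 CPM (-0.51, SE 0.08), and Sftpb, a surfactant protein, 1738 to 2090.4 CPM against 2125 to 2348 CPM (-0.28, SE 0.05). The groups were separate in all 3. Other surfactant genes gave no such difference. Sftpc had -0.01 (SE 0.13), Sftpa1 -0.11 (SE 0.08) and Sftpd 0.09 (SE 0.07), and none passed. The summed level of the list overlapped, at 16781 to 20203 CPM in air H and 16380.4 to 21902 CPM in air L.

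Of 11 type I pneumocyte genes 8 were lower and 1 higher (median -0.27). These were 72.7% and 9.09%, beside 17.4% and 12.3% of all genes. The falls ranged from Cldn18 at -2.11 and the chloride channel protein Clic5 at -1.08 to Emp2 at -0.22. Aqp5, the water channel of type I cells, had 258 to 285 CPM in air H (median 273) and 337 to 385 CPM in air L (median 363), a difference of -0.44 (SE 0.05, adjusted p = 3.55e-07). Akap5, a kinase anchor, differed by -0.27 (SE 0.04), and all its air H levels were below those of air L. Hopx, a homeodomain cofactor that marks the same cells, went the other way, with 366 to 485 CPM against 289 to 387 CPM (0.31, SE 0.09, adjusted p = 0.0161). Ager, the most used marker of type I cells, had a difference of 0.03 and Spock2 one of -0.04, and neither passed. The summed level of the list was 5264 to 5692 CPM in air H and 6450.1 to 6924 CPM in air L, which did not overlap, nor did it without Cldn18 (5182 to 5543 against 5895 to 6350.2 CPM). The dendritic sum also did not overlap, being lower in air H (63.4 to 71.3 against 76.5 to 92.7 CPM). Nor did the hypoxia-responsive sum, which was higher in air H (1403 to 1585 against 1275 to 1313 CPM). With animals 009 to 012 alone, 8 type II and 8 type I genes were lower, with medians of -0.31 and -0.28. With animals 033 and 034 alone, 3 and 5 were lower, with medians of -0.06 and -0.16.

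Airway lists did not move as wholes when all air H animals were fitted together, but their medians differed between the number series. Medians with animals 009 to 012 alone were 0.42 (club), 0.14 (ciliated) and -0.04 (basal and mucous). With animals 033 and 034 alone they were -1.05, -0.18 and -0.89. The number series were not tested against each other. Scgb1a1, the main secretory protein of club cells, had 881 to 1419 CPM in air H (median 1040.1) and 1415 to 2269.8 CPM in air L (median 1757), a difference of -0.80 (SE 0.15, adjusted p = 0.00242). The groups met at their edges. Aldh1a1, which marks the same cells, was higher by 0.29 (SE 0.09, adjusted p = 0.0226), a call lost without air L animal 068 and with animals 033 and 034 alone (0.03), and the other 4 club cell genes did not pass. Of 13 genes of ciliated cells, Pifo was higher (0.79, SE 0.27, adjusted p = 0.0308) at 2.53 to 6.09 CPM against 1.32 to 3.43 CPM, and 0 were lower (median 0.07). The call of Pifo was lost in 6 of the 12 fits without 1 animal. The basal and mucous list had 5 of 7 genes below the filter on low counts, and Muc5b, a mucin, had -0.49 (SE 0.48) without passing.

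Of 15 endothelial genes 2 were higher and 2 lower (13.3% each, near the 12.3% and 17.4% of all genes; median 0.02). Kdr, the main receptor of vascular endothelial growth factor, had 289 to 444 CPM in air H (median 318) and 658 to 749 CPM in air L (median 726), a difference of -1.11 (SE 0.09, adjusted p = 5.75e-07). Cdh5, the cadherin of endothelial junctions, had 399.7 to 567 CPM against 666 to 770.4 CPM (-0.61, SE 0.07). Cldn5, the claudin of the same junctions, was higher, with 356 to 545 CPM against 294 to 341 CPM (0.48, SE 0.08), and Egfl7, a secreted endothelial protein, was higher by 0.20 (SE 0.06), a call lost when all 24 libraries of day 7 were fitted together. Kdr, Cdh5 and Cldn5 had groups without overlap, in opposite directions within a single list. Pecam1, Tie1, Tek, Emcn and Esam lay between -0.05 and 0.12 and did not pass. Among 6 lymphatic genes Lyve1, a hyaluronan receptor, was lower (131 to 159 against 178.5 to 237 CPM, -0.63, SE 0.07) and so was Flt4 (-0.30, SE 0.10), whose call was lost in 5 of the 12 fits without 1 animal.

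In the fibroblast list 2 of 10 genes were higher and 2 lower (median 0.07), and in the smooth muscle list 2 and 2 of 9 (22.2% each). In lists this small these shares are near those of all genes, 12.3% and 17.4%. Col1a1, a chain of type I collagen, had 91.9 to 233 CPM in air H (median 153) and 282 to 448 CPM in air L (median 355), a difference of -1.23 (SE 0.24, adjusted p = 0.00326). Its call was lost with animals 033 and 034 alone. Col3a1, the chain of type III collagen, was higher in air H at 4104 to 5269 CPM against 3512 to 3947 CPM (0.26, SE 0.06). Dpt, a small matrix protein, was higher by 0.48 (SE 0.07) and Fbln1, a matrix glycoprotein, lower by -0.49 (SE 0.08). In smooth muscle the actin-binding protein Tagln (0.46, SE 0.09) and the intermediate filament Des (0.44, SE 0.10) were higher, and Smtn (-0.32, SE 0.08) and Synpo2 (-0.37, SE 0.12) lower, the call of Synpo2 being lost in 5 of the 12 fits without 1 animal. No gene of 6 in the pericyte list or of 6 in the mesothelial list passed.

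Immune lists had few calls. None of 7 alveolar macrophage genes and 9 interstitial macrophage genes passed, and the macrophage receptor Mrc1 had 0.13 (SE 0.06). None of 10 B and plasma cell genes passed. Of 7 neutrophil genes 0 passed. S100a8, an alarmin of neutrophils, had 15.1 to 63.3 CPM in air H (median 23.2) and 11.8 to 14.8 CPM in air L (median 13.2), a difference of 1.05 (SE 0.36, adjusted p = 0.0512). All 6 air H levels were above those of air L, yet the value sits at the threshold. It passed in 9 of 14 other settings, among them the fit with animals 009 to 012 alone, where 3 neutrophil genes were higher (median of the list 0.32). With animals 033 and 034 alone 0 were higher, the median was -0.37 and S100a8 had 0.23. Leaving out 1 animal moved its difference between 0.63 and 1.18. Its partner S100a9 had 0.86 (SE 0.39, adjusted p = 0.126). Fpr1 and Il1r2 were below the filter, and Csf3r, Cxcr2 and Cxcr1, receptors that define neutrophils, had 0.13, -0.30 and -0.21.

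In the T cell list 1 of 12 genes was higher and 2 lower (8.33% and 16.7%, not above the 12.3% and 17.4% of all genes). Lck, a kinase of the T cell receptor, was higher with a slight overlap (26.1 to 40.3 against 16.2 to 26.9 CPM, 0.52, SE 0.12). Cd4 was lower by -0.30 (SE 0.09), a call lost in 1 or more of the fits without 1 animal. Cd3e had 0.27 and Cd3g -0.16, and neither passed. In the dendritic list Zbtb46, a transcription factor, was lower (-0.78, SE 0.10) and the homing receptor Ccr7 higher (0.44, SE 0.15), the call of Ccr7 being lost in 4 of the 12 fits without 1 animal. Among 10 NK cell genes the granzyme Gzmk was higher (0.54, SE 0.14) and the transcription factor Eomes lower (-0.76, SE 0.27), with the latter lost in 6 of those fits. Each NK call was 10% of the list, not above the shares of all genes. Each dendritic call was 20% of 5 tested genes, near those shares in so small a list. Mast cells gave 2 lower and 0 higher of 5 genes (median -0.70), a small list with 40% lower beside 17.4% of all genes. Ms4a2, a chain of the IgE receptor, was lower (0.686 to 2.99 against 2.60 to 6.61 CPM, -1.51, SE 0.34), and so was Kit, a receptor that other lung cells also carry (-0.30, SE 0.07). The proteases Cpa3 and Tpsb2 had -0.71 and -0.70 without passing.

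Tissue taken along with the lung was checked by its own lists. Genes of skeletal muscle, thymocytes, adipocytes and nerve were mostly below the filter (7 of 8, 4 of 5, 6 of 8 and 7 of 8), and the 1 or 2 tested genes of each list did not pass. Myh4, a myosin of fast muscle, and Ucp1 of brown fat were at 0 in all 12 libraries. Cardiac muscle genes, which sleeve the pulmonary veins, gave positive values in all 5 tested members with 0 passing (median 0.48), and their summed level overlapped, at 18.2 to 302 CPM in air H and 19.8 to 195 CPM in air L. Their part in other results was not tested. Red blood cell genes summed to 1726 to 3605 CPM and 1795 to 2631 CPM. In that list Hba1 was called lower (-0.47, SE 0.16, adjusted p = 0.0486) while Hbb had 0.59 (adjusted p = 0.0647) without passing. The 2 genes encode the partner chains of haemoglobin, both have near-identical copies, and the call of Hba1 was lost in 9 of the 12 fits without 1 animal. Of 2 platelet genes tested, Pf4 was higher (0.47, SE 0.16), a call lost in 8 of those fits.

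**Figure D3:**
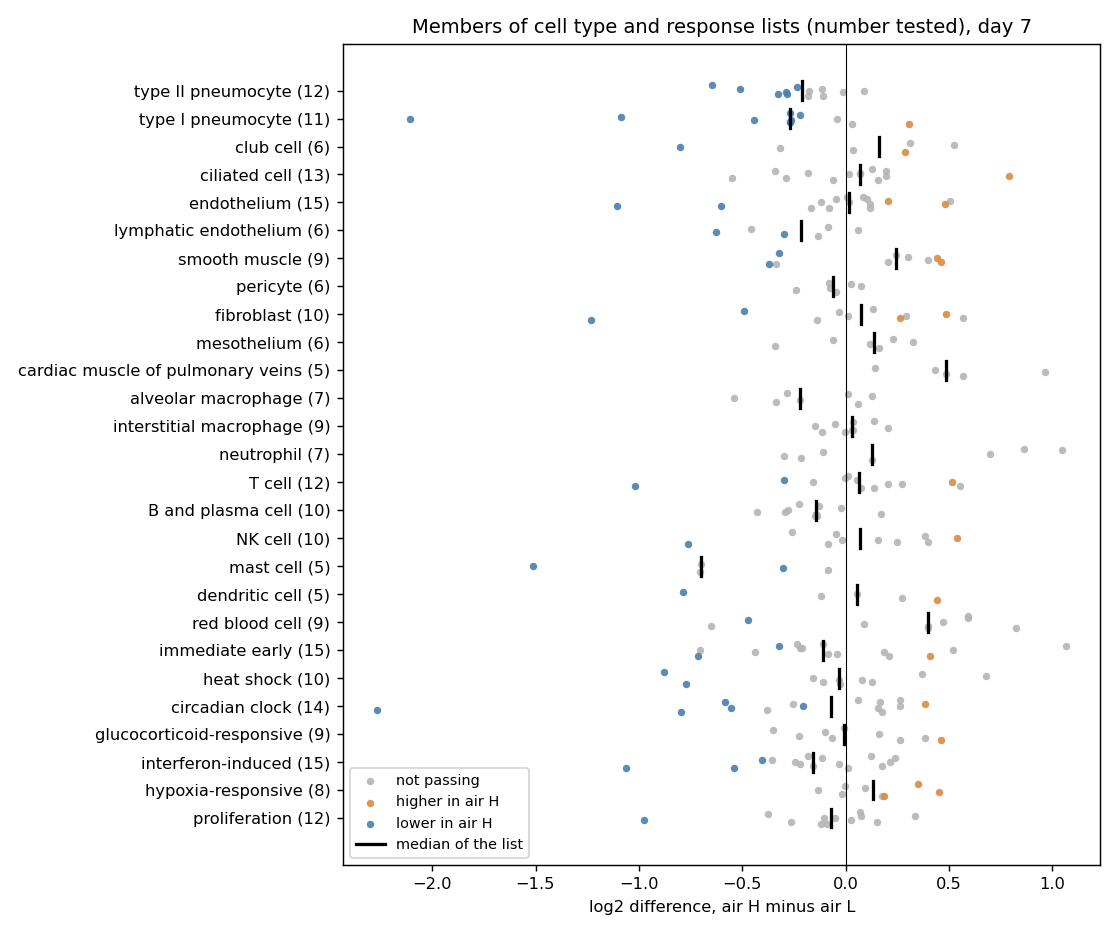
Log2 difference of each tested member (points) of the cell type and response lists with at least 5 tested members, coloured by whether the gene passed, with a bar at the list median. The type I and type II pneumocyte lists lie mostly to the left, with medians of -0.27 and -0.21, though Hopx of the type I list was called higher. The endothelial, fibroblast, smooth muscle and T cell lists also hold called genes on both sides.

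Of 14 clock genes 5 were lower and 1 higher (35.7% lower, beside 17.4% of all genes; median -0.07). Npas2, a clock activator, had 29.03 to 36.6 CPM in air H and 50.2 to 61.96 CPM in air L (-0.80, SE 0.08, adjusted p = 1.17e-07), Per3, a repressor, differed by -0.59 (SE 0.12) and Clock, an activator, by -0.20 (SE 0.05). Nr1d2, a repressor, had -0.55 (SE 0.18) and Cry1, also a repressor, was higher by 0.39 (SE 0.14), a call lost in some of the fits without 1 animal. Nr1d1, a nuclear receptor of the clock named here after its value was seen, had the widest difference of that list, -2.26 (SE 0.47, adjusted p = 0.00343), at 1.26 to 6.68 CPM against 6.33 to 32.2 CPM. Per1, Dbp and Per2, which swing through the day, had 0.27, 0.26 and -0.26 and did not pass. The hour of killing is not given in the sources used here. Of 15 interferon-induced genes 3 were lower and 0 higher (median -0.16), and the 20% lower is near the 17.4% of all genes. Among them Bst2, a tetherin, had the lowest value at -1.06 (SE 0.14). The calls of Isg15 (-0.54, SE 0.18) and Ifit2 (-0.41, SE 0.14) were lost in 7 and 9 of the 12 fits without 1 animal. Of 8 hypoxia-responsive genes 3 were higher (37.5%, beside 12.3% of all genes) and 0 lower, among them Vegfa, a growth factor of vessels (1194 to 1366 against 1076 to 1109 CPM, 0.19, SE 0.04), Bnip3 (0.45, SE 0.12) and the glucose transporter Slc2a1 (0.35, SE 0.10). All 3 calls were lost with animals 033 and 034 alone, a fit with 2 animals in air H, where the list median was 0.04. With animals 009 to 012 alone 3 were higher and the median was 0.19. Of 10 heat shock genes 2 were lower (20%, near the share of all genes), the small chaperone Hspb1 (-0.88, SE 0.11) and its partner Bag3 (-0.77, SE 0.14). Of 15 immediate early genes Ier2 was higher (0.41, SE 0.11) and Zfp36 (-0.71, SE 0.21) and Klf4 (-0.32, SE 0.10) lower. The last 2 calls were lost in some of the fits without 1 animal. At 6.67% higher and 13.3% lower, the list did not exceed the shares of all genes. Of 9 glucocorticoid-responsive genes Tsc22d3, an early target of the receptor, was higher (0.46, SE 0.12), and of 12 proliferation genes the mitotic kinase Plk1 was lower (-0.98, SE 0.28). These single calls were 11.1% and 8.33% of their lists, not above the shares of all genes.

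Among genes of large complexes that every cell makes, many members were slightly higher and a few far lower. Of 79 ribosomal protein genes 39 were higher and 11 lower (49.4% and 13.9%, beside 12.3% and 17.4% of all genes), with a median of 0.22. Their differences reached from -4.36 for Rps16 to 2.11 for Rpl8, which did not pass (SE 1.01). The standard deviation over members was 0.62, against 0.34 over all genes tested. Rps7, of the small subunit, was higher at 263 to 313 CPM against 217 to 256.5 CPM (0.29, SE 0.05, adjusted p = 0.000254), and Rps28, of the same subunit, was lower at 37.2 to 42.8 CPM against 54.5 to 61.9 CPM (-0.60, SE 0.06, adjusted p = 3.5e-07). Rps15, also of that subunit, was lower by the same amount (-0.60, SE 0.06), at 117 to 149.6 CPM against 177 to 215 CPM. Rpl41, of the large subunit, was higher (0.28, SE 0.05). The groups did not overlap in Rps7, Rps28 and Rps15, so transcripts for a single particle differed in opposite directions. Ribosomal protein genes have many processed copies, and their counts are uncertain.

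The mitochondrial ribosome, whose genes have fewer copies, gave 15 higher and 5 lower of 68 (median 0.13). These were 22.1% and 7.35%, beside 12.3% and 17.4% of all genes. Mrps14 was higher (16.4 to 24.1 against 10.8 to 15.03 CPM, 0.55, SE 0.12) and Mrps30 lower (-0.62, SE 0.15), beside the falls of Mrpl40 and Mrpl43. Of 70 nuclear-encoded genes of the respiratory chain 28 were higher and 11 lower (40% and 15.7%, median 0.17). Uqcrc1 and Uqcrc2, the core proteins of complex III, were higher by 0.33 (SE 0.06) and 0.29 (SE 0.06). In complex I, Ndufb7 was lower at 5.53 to 11.6 CPM against 21.6 to 29.5 CPM (-1.73, SE 0.14, adjusted p = 1.28e-08), and Ndufa9 was lower by -0.85 (SE 0.10). In the ATP synthase Atp5c1 was higher (0.27, SE 0.05) and Atp5j2 lower (-0.56, SE 0.07).

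The proteasome gave 15 higher and 7 lower of 37 subunits (median 0.11). These were 40.5% and 18.9%, beside 12.3% and 17.4% of all genes, so the share lower was near that of all genes. Psmd3, a subunit of its lid, had 23.5 to 32.5 CPM in air H (median 25.8) and 60.3 to 68.2 CPM in air L (median 66.2), a difference of -1.33 (SE 0.08, adjusted p = 1.43e-10). Psmc5 and Psmc2 are both ATPases of the base ring. Psmc5 was lower at 22.4 to 32.1 CPM against 54.9 to 68.0 CPM (-1.25, SE 0.09), and Psmc2 was higher at 91.4 to 118 CPM against 81.5 to 90.3 CPM (0.31, SE 0.06). Psmb4, of the catalytic core, and Psmd5, an assembly chaperone, were higher by 0.39 (SE 0.07) and 0.45 (SE 0.07). The groups did not overlap in any of these 5 genes. The counts of rises differed between fits by number series, and the 2 series were not tested against each other. With animals 009 to 012 alone 48 ribosomal protein genes were higher and 12 lower (median 0.27), 33 and 10 of the respiratory chain (0.21), 14 and 5 of the mitochondrial ribosome (0.14) and 16 and 8 of the proteasome (0.17). With animals 033 and 034 alone the counts were 2 higher and 7 lower (median 0.09), 2 and 6 (0.11), 0 and 2 (0.08) and 1 and 4 (0.10). The medians stayed above zero in both, while more members were called lower than higher with the 2 animals. That fit holds 2 animals in air H and so calls fewer small differences by its construction. Its balance of calls therefore cannot tell whether the series differed.

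**Figure D4:**
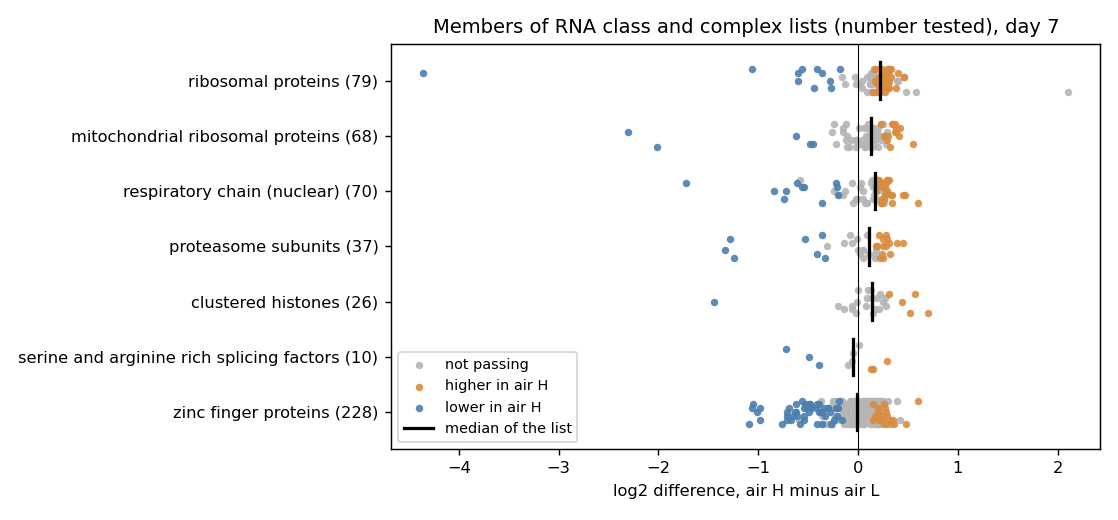
Log2 difference of each tested member (points) of the RNA class and complex lists with at least 10 tested members, with a bar at the list median. In the 4 lists of protein complexes most members sit just right of zero while a few lie far to the left, such as Rps16 at -4.36 and Psmd3 at -1.33.

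Of 10 serine and arginine rich splicing factors 3 were higher and 3 lower (median -0.05). Srsf2 had 177 to 197 CPM in air H and 249 to 266 CPM in air L (-0.49, SE 0.04, adjusted p = 3.81e-08), Srsf4 was lower by -0.72 (SE 0.10) and Srsf7 by -0.39 (SE 0.06), while Srsf1 was higher at 353 to 377 CPM against 310.0 to 338 CPM (0.15, SE 0.04). Of 228 zinc finger genes 20 were higher and 49 lower (8.77% and 21.5%, near the shares of all genes; median -0.01, and 0.03 with upper-quartile factors), with Zfp36l1, a protein that destabilises mRNA, at -1.09 (SE 0.09) and Zfp187 at 0.29 (SE 0.05). Histone genes, most of whose mRNA lacks a poly(A) tail, gave 5 higher and 1 lower of 26 (median 0.14). These were 19.2% and 3.85%, beside 12.3% and 17.4% of all genes. The fall was the linker histone Hist1h1d at -1.45 (SE 0.09). Histone genes are near-identical within families, so their split is uncertain.

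Non-coding RNA differed in a few genes. Rmrp, the RNA of a nuclear and mitochondrial ribonuclease, had 5266 to 8224 CPM in air H (median 6914) and 4667 to 5637 CPM in air L (median 5152), a difference of 0.37 (SE 0.11, adjusted p = 0.0207). The groups overlapped, and with animals 033 and 034 alone the difference was 0.05 and did not pass, and the median of Rmrp and Terc, the 2 structural RNA genes tested, was -0.14. Gas5 and Snhg11, which carry small nucleolar RNA in their introns, differed in opposite directions, with 0.40 (SE 0.07) and -0.79 (SE 0.11). No symbol of small nucleolar, small nuclear or mitochondrially encoded RNA was found, so these classes were not analysed here. Of 6 microRNA symbols tested 0 passed. Chemoreceptor genes, of which lung transcribes few, summed to 70.0 to 94.7 CPM in air H and 72.0 to 85.2 CPM in air L.

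Properties of whole libraries were compared over the 12 animals with two-sided exact permutation tests, of which the smallest p possible is 0.0021645, adjusted over 17 measures. The ribosomal protein sum was 13606 to 16718 CPM in air H and 13044 to 14157 CPM in air L, a ratio of 1.12 (exact permutation test, adjusted p = 0.0442). Ratios of 1.09 were found for the mitochondrial ribosome and for the respiratory chain (adjusted p = 0.0368 each, exact permutation test). The structural RNA sum, nearly all Rmrp, had a ratio of 1.31 (adjusted p = 0.0491, exact permutation test), and identifier-only symbols took 4.402% of counts in air H and 4.304% in air L (adjusted p = 0.0368, exact permutation test). The host genes of small nucleolar RNA had 1.11 (adjusted p = 0.0442, exact permutation test). Leaving out 1 animal gave ratios of 1.10 to 1.15 for the ribosomal sum, and 2 of 12 such tests passed, as also for the structural RNA sum. For the mitochondrial ribosome and the respiratory chain 7 of 12 passed, for the host genes 3 and for the identifier symbols 11. Total counts (ratio 1.13), genes detected at equal depth (18099 to 18305 against 18206 to 18302), histones, the proteasome sum (ratio 1.03, adjusted p = 0.204 by exact permutation test), chemoreceptors, red blood cell genes and the share of the 50 most abundant genes did not pass.

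The genes were then followed in animals that had inhaled particles. In the 12 exposed libraries of day 7, which share no library with the air groups, 1000 against 200 ug/m3 gave 1126 genes higher (8.16% of 13805) and 1972 lower (14.3%). Dose and letter go together there and cannot be told apart. Of the 216 genes at least 2-fold lower in air H, 210 were tested in that comparison, 187 were lower and 0 higher, with a median of -1.15. The 12 largest falls were all lower there, from -4.25 for Rps16 to -1.59, and 5 of the 12 largest rises were higher. Among genes called in both comparisons, 2272 of 2273 had the same sign, and these were 55.3% of the air calls and 73.4% of the exposed calls. Across 13681 genes the 2 sets of differences had a Pearson's r of 0.75 and a Spearman's rho of 0.69, as a description, since genes are not independent and the animals were labelled alike.

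The difference between the 2 comparisons was tested directly in the 24 libraries of day 7. With edgeR 0 of 14331 genes passed (0%), 747 had an unadjusted p under 0.05, and DESeq2 called 1 gene, Sv2c, a protein of synaptic vesicles. For Rps16 the exposed difference minus the air difference was 0.11 (95% interval -0.69 to 0.90), for Rab27a -0.01 (-0.40 to 0.37) and for Tspan1 0.49 (-0.40 to 1.38). Fabp5 had -0.61 (-1.18 to -0.04, adjusted p = 0.934). One exposed library of the H letter was shallow, and without it 3350 genes were called between the exposed groups in place of 3098.

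At day 1 fewer genes were called. There 67 of 11782 genes were higher (0.569%) and 74 lower (0.628%) in air H, while 2395 had an unadjusted p under 0.05 and DESeq2 called 370. Of the 216 genes, 189 were tested, 3 were lower and 2 higher, and their median was -0.02. The day 1 air libraries are shallower, with 1288275 to 2397971 counts, so fewer genes could be tested. At day 27 the direction was opposite. Air H had 1515 of 14259 genes higher (10.6%) and 1152 lower (8.08%), and of the 216 genes 153 were higher and 0 lower, with a median of 0.61. Among 1639 genes called at both day 7 and day 27, 27 had the same sign. Of the 1706 genes higher in air H at day 7, 546 were lower at day 27, and of the 2404 lower genes 1066 were higher.

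Tests of the difference between days gave 2719 of 13788 genes for day 7 against day 1 (19.7%) and 5416 of 14498 for day 7 against day 27 (37.4%). Among the 216 genes, 179 of the 214 tested passed as lower at day 7 than at day 1, and 210 of 216 as lower than at day 27. All 12 of the largest falls passed in both, and 11 of the 12 largest rises passed in the opposite direction in each. These genes were chosen on the day 7 libraries that enter both tests, so their direction follows in part from the choice and is a description.

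Levels over the whole series show which groups stood low. Rps16 had medians of 7.58 CPM in air H and 8.24 CPM after 1000 ug/m3 at day 7, against 176 CPM in air L and 138 CPM after 200 ug/m3. At day 27 it had 134 CPM in air H, 43.3 CPM after 1000 ug/m3, 21.7 CPM in air L and 30.3 CPM after 200 ug/m3, and at day 1 its group medians lay between 176 and 255 CPM. Cldn18 followed the same order at day 7, with 126 and 137 CPM for the letter H and 539 and 474 CPM for the letter L. At day 27 it had 443 CPM in air H and 242 CPM in air L. Fabp5 had 71.5 and 78.2 CPM for the letter H at day 7 and 28.2 and 47.4 CPM for the letter L, and at day 27 38.3 CPM in air H and 61.5 CPM in air L. The low level of Rps16 and Cldn18 thus belonged to the letter H at day 7 and to the letter L at day 27 among the air animals.

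As a measure per library, the median over the 216 genes of the log2 difference from the air L mean of day 7 ran from -1.39 to -0.87 in air H and from -0.06 to 0.07 in air L, a gap that the choice of these genes fixes. The exposed animals of day 7, which had no part in the choice of these genes, had -1.49 to -0.97 for the letter H and -0.16 to -0.01 for the letter L. At day 27 air L had -0.89 to -0.38 and air H -0.15 to 0.06, without overlap, while 1000 ug/m3 had -0.94 to -0.06 and 200 ug/m3 -0.73 to -0.20. The -0.94 came from animal 045, a shallow library of 149004 counts, and animal 024 of that group (-0.63) had 439393 counts. The -1.49 of day 7 came from animal 037, with 105453 counts. At day 1 every group lay between -0.00 and 0.25. Within air H, animal 033 had the value nearest zero, -0.87.

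**Figure D5:**
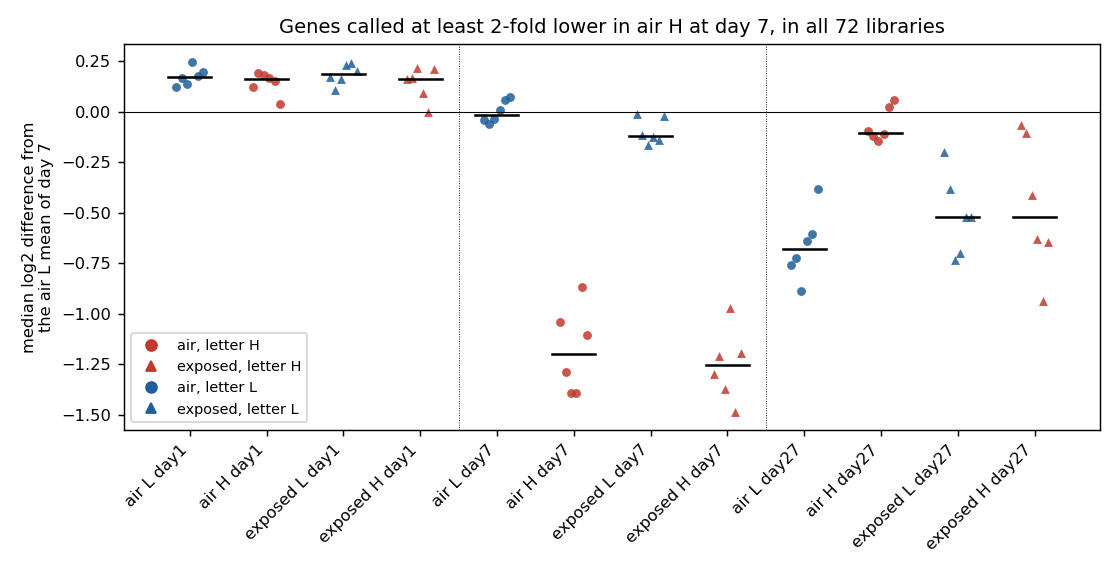
Median log2 difference from the air L mean of day 7 (y axis) over the 216 genes called at least 2-fold lower in air H at day 7, 1 point per library in each of the 12 groups of 6, with a bar at the group median. Both letter H groups of day 7 lie at or below -0.87, all day 1 groups lie between -0.00 and 0.25, and at day 27 air L lies below air H.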

How the data were processed

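Lung total RNA of 72 rats was sequenced, 1 library per animal, and the 12 air libraries of day 7 are described here. The deposited table holds raw counts per gene, made by the authors. Per the submitters' processing notes, the tools were HTSeq 0.6.1, HISAT2 2.1.0, Trimmomatic 0.35, bcl2fastq 2.19 and SAMtools 1.8 (no order given) on the build Rnor_6.0, and the strand setting of the counting is not given in the sources used here, so overlapping and antisense genes are uncertain. Of 30042 gene symbols, 19073 matched a GRCr8 gene table directly and 2380 by a synonym, and these names, not its coordinates, were used.

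The quasi-likelihood test of edgeR 4.0.16 (R 4.3.3) was run on the counts (TMM factors, its filter on low counts by group, robust dispersions, Benjamini-Hochberg adjustment, threshold 0.05) on the 12 libraries alone. The exposed, day 1 and day 27 groups were fitted likewise, and differences between comparisons as contrasts in fits of 24 libraries. limma 3.58.1 and DESeq2 1.42.0, other scaling, filters, a fold limit, subsets of animals and leaving out each animal were the alternatives. The procedure was tested on simulated data. SE is the log2 difference over the root of F.

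The 48 gene lists hold 26 cell types, 7 responses and 15 RNA classes. Of 340 symbols written out, 326 were found directly and 1 by a synonym. Named genes were the 12 largest falls and rises with groups that did not overlap, a mean level of 2 log2 CPM or more and no identifier symbol, and in each list the 3 genes per direction with the smallest p among those called, or the single gene with the smallest p where none was. Rps16, Rab27a, Ecm1, Nkx2-1, Slc34a2, S100a8 and S100a9 were known beforehand. Other list members named as not passing, and Clic5, Emp2, Etv5, Nr1d1 and Nr1d2, were chosen after their values were seen. The comparison, the genes and the lists were chosen with earlier results of these data known. Some genes that the rule takes are not reported here.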

Additional observations from a re-analysis of the deposited data

Results flagged for a closer look

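The air H to air L difference itself differed between days, by tests of that difference: 2719 genes passed for day 7 against day 1 and 5416 for day 7 against day 27 (edgeR's quasi-likelihood test, Benjamini-Hochberg adjustment). The log2 difference at day 7 minus that at day 1 was -3.93 for Rps16, -3.03 for Tspan1 and -2.64 for Rab27a, and 1.5 for Fabp5, 1.72 for Pcdha4 and 1.06 for Foxo4. Against day 27 the values were -6.64 for Rps16, -3.68 for Tspan1 and -3.41 for Rab27a, and 1.93 for Fabp5, 0.93 for Pcdha4 and 1.37 for Foxo4. These genes were chosen for their difference at day 7.

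In 82 groups of 6 values checked, 3 held a value far from the other 5, where chance gives about 1 in 20. Pcdha4 stood at 9.60 CPM in air H animal 011, Qdpr at 16.3 CPM in air L animal 066, and the 50 most abundant genes took 12.5% of counts in 1 air H library, the lowest of its group.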

How the results depend on the processing

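The number of genes called at day 7 lay between 3653 and 4513 under 12 of the 14 alternatives. With animals 033 and 034 alone it was 1474 (401 higher, 1073 lower, 128 at least 2-fold lower), a fit with fewer samples, and with a required fold of 1.5 it was 225 (2 higher, 223 lower). Leaving out 1 animal gave 3600 to 4632. DESeq2 called 370 genes in place of 141 between the air groups of day 1, and 1 in place of 0 for exposed minus air. The median of the proteasome list was 0.15 with upper-quartile factors and 0.15 with none, that of the splicing factors -0.015 with upper-quartile factors, and that of the zinc finger genes 0.027 with upper-quartile factors and 0.025 with none. The median over all genes tested moved as well, from 0.011 to 0.050 with upper-quartile factors and 0.047 with none. The cause of these shifts was not tested. Leaving out 1 animal gave ratios of air H to air L of 1.09 to 1.16 for total counts, 0.993 to 0.996 for genes detected, 1.02 to 1.03 for identifier symbols, 1.10 to 1.15 for ribosomal proteins, 1.08 to 1.10 for the mitochondrial ribosome and for the respiratory chain, 1.26 to 1.37 for structural RNA, 1.08 to 1.13 for host genes of small nucleolar RNA, 0.970 to 0.979 for splicing factors and 0.985 to 0.992 for zinc finger genes, each crossing the threshold in 1 or more of the 12 tests.

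Of 1834 values for 131 named genes, 1626 kept their side of the threshold, 18 gained a call and 190 lost it, and 0 called genes changed sign. Of the genes not called, Actc1 (-0.05), S100a9 (-0.13) and RGD1566401 (-1.76) were negative with animals 033 and 034 alone, and Tnnt3, at -0.02, turned positive at up to 0.02. The fold limit accounts for 93 of the losses and the fit of animals 033 and 034 for 52. No paired analysis was possible because the animal numbers differ between the groups. A check of promoter base composition was void, since 73.8% of the genes tested had a promoter sequence and 80% were needed, and one of protein length was not run. A count per gene limits what can be said of genes under the filter on low counts, which were not tested.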
